A study of Mus musculus with 12 samples.

Results

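The major urinary protein (Mup) genes and the growth hormone axis of mouse liver were examined as 36 genes, chosen by symbol from a table of 25947 gene entries. They were the 22 genes whose symbol is Mup followed by a number, and 14 genes of growth hormone signalling and its hepatic targets: Ghr, Prlr, Jak2, Stat5a, Stat5b, Socs2, Cish, Igf1, Igfals, Bcl6, Hsd3b5, Elovl3, Cux2 and Selenbp2. Their levels were compared across 12 liver libraries of wild-type (WT) mice, 3 in each of 4 groups. The ND-Sham and ND-IRI mice ate a normal diet (ND), and the HFD-Sham and HFD-IRI mice a high-fat diet (HFD) that makes the liver steatotic, for 4 months. In hepatic ischemia-reperfusion injury (IRI), the left and middle branches of the hepatic pedicle were closed for 1 h and reopened for 6 h, while sham mice were operated on without ligation. The labels used here give no strain, sex or age. They do not say that the samples of a group came from separate animals, and the p-values therefore refer to the spread among samples, part of which may be technical.

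Growth hormone binds its receptor Ghr on hepatocytes, and the receptor-bound kinase Jak2 then phosphorylates the transcription factors Stat5a and Stat5b, which switch on Igf1, Igfals and the feedback inhibitors Socs2 and Cish. In rodents the pituitary releases growth hormone in pulses in males and more evenly in females, and the pulses drive a male pattern of liver gene expression through Stat5b. The Mup genes, which encode lipocalins that are secreted by the liver, pass into the urine and carry pheromones, are among the most abundant transcripts of that male pattern.

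Values are TPM, a gene's reads divided by its transcript length and scaled so that each library sums to the same total, so levels of different genes can be compared but sequencing depth is unknown. Between 18935 and 20425 genes per library were above 0. Transcripts of the Y-linked genes were present in all 12 libraries (Ddx3y from 35.9 to 67.6 TPM) and Xist did not pass 0.07 TPM, the pattern of male tissue. The 7 hepatocyte markers in the table summed to between 91720.5 and 121016 TPM over the 12 libraries, and none was at 0. By single genes, 4 of these 7 were lower after IRI on the normal diet (Apoa1, Apob, Serpina1a and Cps1, log2 differences -0.88 to -0.47) and 1 was higher (Fgb). After IRI on the high-fat diet 1 was lower (Apob, -0.94) and 1 higher (Fgb, 1.88). With the high-fat diet 2 were lower in sham livers (Serpina1a and Cps1, -0.56 and -1.51) and 0 were called in IRI livers. Beside these and the marker counts that follow, 30.2% of all genes tested rose and 16.6% fell after IRI on the normal diet. After IRI on the high-fat diet 24.0% rose and 21.9% fell, and with diet in sham livers 4.63% rose and 1.2% fell. Neutrophil markers (10 genes) summed to 235 to 637 TPM in ND-IRI against 20.2 to 22.3 in ND-Sham, and to 196 to 530 in HFD-IRI against 7.51 to 17.4 in HFD-Sham. Red blood cell markers (6 genes) were also higher in IRI, at 491 to 1554 and 655 to 2300 TPM against 97.7 to 129 and 73.9 to 123 in the sham groups. Cholangiocyte markers (6 genes, 5 tested, all 5 higher after IRI on both diets) summed to 221 to 686 TPM in ND-IRI against 40.0 to 90.9 in ND-Sham and to 390 to 1145 in HFD-IRI against 105 to 409 in HFD-Sham. Most of that sum was Spp1, at 163.8 to 621.8 TPM in ND-IRI and 357.3 to 1103.2 in HFD-IRI, while Krt19 did not pass 15.52 TPM in any library. Endothelial markers (7 genes, 3 higher and 1 lower after IRI on the normal diet, 4 and 1 on the high-fat diet) summed to 152 to 193 TPM in the IRI libraries against 54.5 to 102 in sham. Kupffer cell markers (7 genes, 3 lower on each diet) summed to 69.2 to 140.2 TPM in ND-IRI against 183 to 216 in ND-Sham and to 71.2 to 183 in HFD-IRI against 197 to 325 in HFD-Sham. In bulk tissue, fewer hepatocytes and less RNA per hepatocyte cannot be told apart. Adipoq, an adipocyte hormone, was at 11.6 TPM in the first ND-Sham library and no higher than 0.23 TPM elsewhere. On principal component 3 (8.13% of the variance) that library was at 30.53, against -16.95 and -10.23 for the others of its group. The first ND-IRI library lay on the opposite side, at -20.05 against 25.37 and 23.67 for the others of its group.

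The 22 Mup genes lie on chromosome 4 and differ little in sequence, which limits what the table can say of any one of them. In GENCODE transcripts of build GRCm38, 16 of them had coding sequences that were 98.2% to 99.82% identical to each other, and a median of 13.8% of their 100-base windows occurred in no other gene. These 16 are called near-identical here, since reads of one can be counted under another. The other 6 (Mup3, Mup4, Mup5, Mup6, Mup20 and Mup21), called divergent, were under 97% identical to any other member and had 61.2% to 100% of windows to themselves. The same 60 coding bases, chosen as the stretch with the most differences among the members shown, show both classes, with capitals where a base differs from Mup7. Each stretch joins exon 2 to exon 3 on the minus strand of GRCm38, over chr4:60068935-60069752 (Mup7), chr4:60660922-60661749 (Mup11), chr4:61594385-61595212 (Mup17), chr4:62052670-62053499 (Mup20), chr4:62085993-62086819 (Mup3), chr4:62149388-62150214 (Mup21) and chr4:59959230-59960058 (Mup4).
Mup7: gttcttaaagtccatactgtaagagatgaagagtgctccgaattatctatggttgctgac
Mup17: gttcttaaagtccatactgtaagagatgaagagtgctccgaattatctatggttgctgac
Mup11: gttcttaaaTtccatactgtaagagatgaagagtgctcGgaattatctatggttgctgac
Mup4: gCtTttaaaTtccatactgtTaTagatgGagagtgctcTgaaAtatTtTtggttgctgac
Mup20: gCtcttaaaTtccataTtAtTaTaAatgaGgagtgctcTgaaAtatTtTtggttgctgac
Mup21: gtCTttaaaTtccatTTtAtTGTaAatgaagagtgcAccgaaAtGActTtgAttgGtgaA
Mup3: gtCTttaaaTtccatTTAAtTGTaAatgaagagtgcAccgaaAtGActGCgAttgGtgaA
Mup7 and Mup17, both near-identical members, do not differ at all here, and Mup11 differs from Mup7 at 2 bases. The divergent Mup4, Mup20, Mup21 and Mup3 differ from it at 10, 12, 18 and 20 bases.

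RefSeq promoter windows (GRCm38.p6, from 250 bases before to 50 after the start) were held for 26 of the 36 genes, 14 of them Mup genes. The 70 bases before the start are shown for the divergent genes with an entry whose levels are described below, and for Mup15 as an example of the near-identical class, with the motif TATATAA in capitals. They lie on the minus strand at chr4:62087318-62087387 (Mup3), chr4:62150842-62150911 (Mup21), chr4:59960668-59960737 (Mup4) and chr4:61439705-61439774 (Mup15).
Mup3: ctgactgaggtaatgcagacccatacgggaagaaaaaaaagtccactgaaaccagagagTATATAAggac
Mup21: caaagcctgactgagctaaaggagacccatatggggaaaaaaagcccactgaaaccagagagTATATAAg
Mup4: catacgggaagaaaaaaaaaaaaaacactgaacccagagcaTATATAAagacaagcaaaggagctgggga
Mup15: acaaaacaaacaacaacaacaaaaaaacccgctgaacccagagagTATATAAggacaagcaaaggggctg
TATATAA, searched on both strands, was found in the windows of 13 of the 14 Mup genes and in 3.24% of all 32851 windows. The motif TTCNNNGAA, the palindromic core that Stat5 proteins bind, was found on either strand in 8.3% of all windows, in 0 of the 14 Mup genes, and in windows of Bcl6, Cish, Igfals and Prlr. The Cish and Igfals matches are shown with the motif in capitals, at chr9:107296654-107296683 (Cish), chr17:24877598-24877627 and chr17:24878163-24878192 (the starts of Igfals), all on the plus strand.
Cish: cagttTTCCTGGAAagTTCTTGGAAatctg
Igfals, one start: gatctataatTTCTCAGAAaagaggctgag
Igfals, another start: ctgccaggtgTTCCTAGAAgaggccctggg
A match of letters is a description of these windows and not a site of binding.

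Mup transcripts were less abundant on the high-fat diet, with or without IRI. The 22 genes summed to 34117, 45871 and 40192 TPM in the ND-Sham libraries and to 37437, 37436 and 65231 TPM in the ND-IRI libraries. They summed to 16764, 10313 and 25167 TPM in HFD-Sham and to 20353, 13114 and 15062 TPM in HFD-IRI. All 6 libraries of the high-fat diet lay below all 6 of the normal diet, and within a diet the sham and IRI libraries overlapped. The group means were 40060 ± 5878 and 17415 ± 7449 TPM in sham livers and 46701 ± 16047 and 16176 ± 3746 TPM in IRI livers (SD, n = 3), 2.3-fold and 2.89-fold lower on the high-fat diet. The sum runs from 1.03% to 6.52% of a library's total, and it is less affected than single genes by how reads were split among them. No test was made of it, since it is a score over chosen genes. Summed TPM of the divergent genes alone were 19556 ± 1550 and 8822 ± 1907 in sham livers and 23286 ± 1757 and 9599 ± 1470 in IRI livers.

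**Figure D1:**
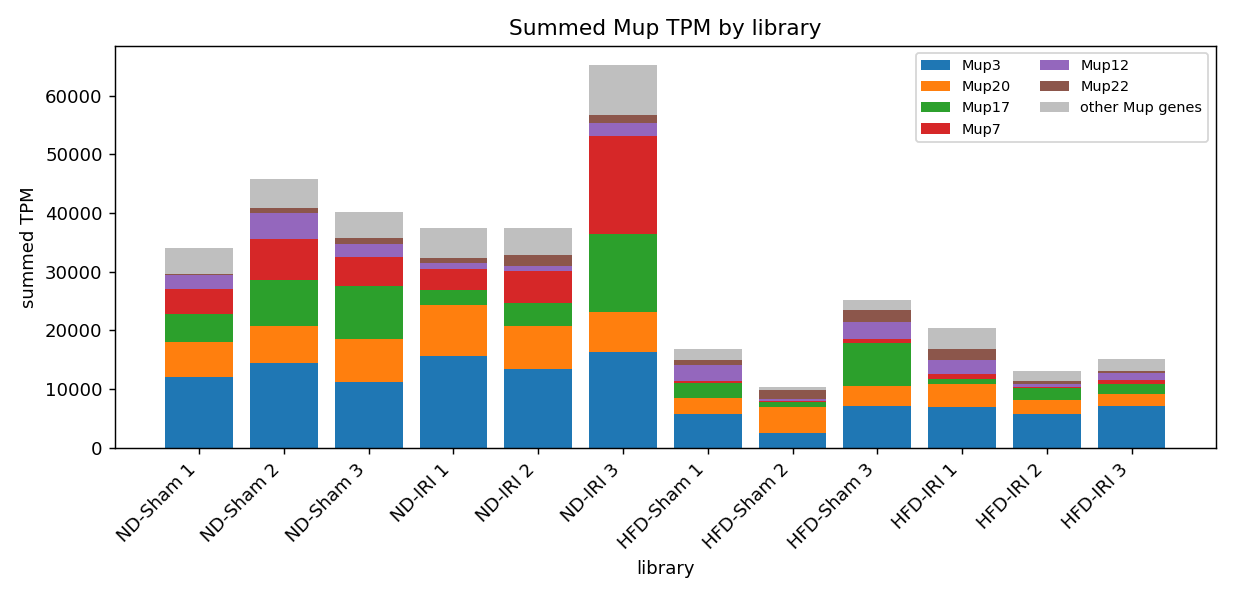
Summed TPM of the 22 Mup genes in each of the 12 libraries (vertical axis, TPM, from 0), stacked by gene with the 6 most abundant in colour. The 6 high-fat libraries sit between 10313 and 25167 TPM and the 6 normal-diet libraries between 34117 and 65231 TPM, and the third ND-IRI library is the tallest, with 25.4% of its sum from Mup7.

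Differences of single genes were tested with limma on log2(TPM + 1), two-sided and with adjustment over the 13364 genes that reached 1 TPM in 3 or more libraries, and calls required an adjusted p under 0.05. Differences are given on this log2 scale, where the added 1 shrinks changes of genes near 0 TPM. Of the 36 genes, 35 passed the filter. Mup6, which did not pass 1.66 TPM in any library, was the exception. Cux2 passed only through the ND-Sham libraries and Hsd3b5 only through the normal-diet libraries, so both had to differ between groups, and counts over the genes that passed are descriptions. Mup4 likewise reached 1 TPM in 6 normal-diet libraries and 1 high-fat library. The same limit holds for list genes that reached 1 TPM in fewer than 3 of the 6 libraries of the side where they were low, and it is given where they are named. For any one gene, exact permutation of 3 libraries against 3 cannot reach a p below 0.1.

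In sham livers, the high-fat diet lowered 7 of 21 tested Mup genes and raised none, and of the 35 tested genes of the whole set 11 fell and 1 rose. Over all genes tested, 1.2% fell and 4.63% rose, 5.84% in all. At an unadjusted p under 0.05, limma put 11 Mup genes lower and 0 higher. The median log2 difference of the Mup genes was -1.43 against 0.17 over all genes, and 19 of 21 estimates were below 0. The 7 that fell were Mup3, Mup20 and Mup21 of the 5 divergent genes tested and Mup7, Mup8, Mup11 and Mup14 of the 16 near-identical ones. In 10 of the 21 the HFD-Sham libraries all lay below the ND-Sham libraries, against 4.74% of all genes tested. The 11 of the whole set became 4 without the second or the third ND-Sham library, 7 without the first HFD-Sham library and 5 without the second. The 6 adipocyte markers summed to 3025 to 4019 TPM in HFD-Sham against 570.5 to 1393 in ND-Sham. Nearly all of that sum was Car3, a carbonic anhydrase that hepatocytes also express, at 2975 to 4015 against 569.5 to 1393 TPM, and Cidea was at 4.07 to 49.6 TPM in HFD-Sham. The defining markers were at or near 0 in HFD-Sham, with Lep at 0, Adipoq and Retn no higher than 0.08 and Plin1 no higher than 0.25 TPM. Stellate cell markers (7 genes, 3 higher and 0 lower) summed to 135.5 to 247.8 TPM in HFD-Sham against 93.2 to 139.6 in ND-Sham. Their part in the diet differences was not tested.

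Mup3, a divergent member and the most abundant Mup transcript in 9 of the 12 libraries, was at 12004, 14525 and 11165 TPM in ND-Sham and at 5790.1, 2505 and 7139 TPM in HFD-Sham. The groups did not overlap, and the second HFD-Sham library was the lowest of all 12. Mup3 ranked between 9 and 11 among all genes of a library in ND-Sham and between 19 and 47 in HFD-Sham. Its log2 difference was -1.41 (SE 0.3, adjusted p = 0.0189), but the call was lost without the second ND-Sham library (adjusted p = 0.0829) or the third (adjusted p = 0.051).

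Mup20 encodes darcin, the male pheromone protein that attracts females. It was at 6073, 6276 and 7373 TPM in ND-Sham and at 2752, 4359 and 3461 TPM in HFD-Sham. The groups did not overlap. It fell by 0.92 on the log2 scale (SE 0.233, adjusted p = 0.0401), a call that was lost when any library but the first ND-Sham one was left out, with adjusted p from 0.0527 to 0.147. In IRI livers it was at 8576, 7399 and 6811 TPM on the normal diet and at 3916, 2313 and 2030.3 TPM on the high-fat diet, again with no overlap. There it fell by 1.52 (SE 0.233, adjusted p = 0.00366), and that call was kept under every alternative tried.

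Mup21, the divergent gene nearest in sequence to Mup3 (94.8% identical), was at 369.7, 520.7 and 312.7 TPM in ND-Sham, 174, 103 and 175 TPM in HFD-Sham, 597, 541 and 377 TPM in ND-IRI, and 274, 143 and 206 TPM in HFD-IRI. Every high-fat library lay below every normal-diet library. It fell by 1.41 in sham livers (adjusted p = 0.0141) and fell by 1.30 in IRI livers (adjusted p = 0.0245). The call in sham livers was lost without the second ND-Sham library (adjusted p = 0.0682) or the second HFD-Sham library (adjusted p = 0.0696). The call in IRI livers was lost without the first or second ND-IRI library (adjusted p = 0.0661 and 0.0991) or without the second or the third HFD-IRI library (adjusted p = 0.0936 and 0.06).

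Mup7 fell with the high-fat diet in sham and IRI livers. It was at 4212, 6984 and 5060.4 TPM in ND-Sham and at 361, 72 and 782 TPM in HFD-Sham. In IRI livers it was at 3596, 5413 and 16594 TPM on the normal diet and at 825, 201 and 669.7 TPM on the high-fat diet. The diets did not overlap in either pair, and the third ND-IRI library stood far above the other two. The log2 differences were -4.27 in sham livers (SE 0.799, adjusted p = 0.0103) and -3.83 in IRI livers (SE 0.799, adjusted p = 0.0204). The second of these was lost without the second or the third ND-IRI library (adjusted p = 0.0586 and 0.0776) or the second HFD-IRI library (adjusted p = 0.0803). Since Mup7 is near-identical to 15 other members, TPM listed under its name may include reads of others.

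Mup8 was at 7.23, 56.8 and 104.7 TPM in ND-Sham and 29.2, 121.7 and 194.5 TPM in ND-IRI, but at 1.82, 0.6 and 1.69 TPM in HFD-Sham and 1.47, 0.45 and 0.78 TPM in HFD-IRI. No high-fat library reached 2 TPM. It fell by 4.01 in sham livers (adjusted p = 0.016) and fell by 5.60 in IRI livers (adjusted p = 0.0029). The call in sham livers was lost without the second or the third ND-Sham library (adjusted p = 0.0736 and 0.0673) or the second HFD-Sham library (adjusted p = 0.077). Mup14 was at 422, 375 and 637 TPM in ND-Sham and 22.7, 9.58 and 142 TPM in HFD-Sham, with no overlap, and fell by 3.82 (adjusted p = 0.0407), a call lost when any 1 of 5 libraries was left out (adjusted p from 0.0585 to 0.182). Those 5 were the 3 ND-Sham libraries and the first and second HFD-Sham libraries. In IRI livers Mup14 fell by 5.14 (adjusted p = 0.0121), and the call was lost without the third ND-IRI library (adjusted p = 0.0526) or the second HFD-IRI library (adjusted p = 0.0559). Mup11 was at 208, 304 and 235 TPM in ND-Sham and 47.2, 22.6 and 79.8 TPM in HFD-Sham. It fell by 2.45 in sham livers (adjusted p = 0.0333), a call lost without the second or the third ND-Sham library (adjusted p = 0.122 and 0.101) or the first or second HFD-Sham library (adjusted p = 0.0831 and 0.154). In IRI livers its log2 difference was -2.24 (adjusted p = 0.0618).

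Mup4, which is divergent and of low abundance, was listed at 0 in all 3 HFD-Sham libraries and at 27.4, 6.15 and 8.5 TPM in ND-Sham. The test did not call it (adjusted p = 0.0553). In ND-IRI it was at 43.0, 33.4 and 31.6 TPM. In HFD-IRI it was at 33.4, 0.12 and 0.31 TPM, so that 1 library held nearly all of that group's Mup4. Mup22 was among the exceptions to the lower levels on the high-fat diet, with 213, 885 and 1121 TPM in ND-Sham and 841, 1497 and 2058 TPM in HFD-Sham, and was not called (adjusted p = 0.388). Mup17, the near-identical gene with the highest mean level in HFD-Sham livers, was at 4731, 7875 and 8998 TPM in ND-Sham and 2487, 963 and 7204 TPM in HFD-Sham, and was not called either (adjusted p = 0.267).

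In IRI livers, 6 of 21 tested Mup genes fell on the high-fat diet and 0 rose, and 8 of the 35 tested genes of the whole set fell. Over all genes tested, 1.48% fell and 2.38% rose (3.86% in all), and at an unadjusted p under 0.05 limma put 13 Mup genes lower and 0 higher. The 6 were Mup3, Mup20, Mup21, Mup7, Mup8 and Mup14. Estimates were below 0 for 20 of 21, with a median log2 difference of -1.56 against 0.04 over all genes, and in 9 of 21 the diets did not overlap, against 7.0% of all genes. Mup3 was at 15707, 13424 and 16268 TPM in ND-IRI and 6948, 5808 and 7119.9 TPM in HFD-IRI. These groups were far apart, yet the log2 difference of -1.19 was only just called (adjusted p = 0.048) and was lost when any 1 of the 6 libraries was left out, with adjusted p from 0.0866 to 0.153. The 8 genes of the whole set became 5 without the second or the third ND-IRI library and 4 without the second HFD-IRI library.

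**Figure D2:**
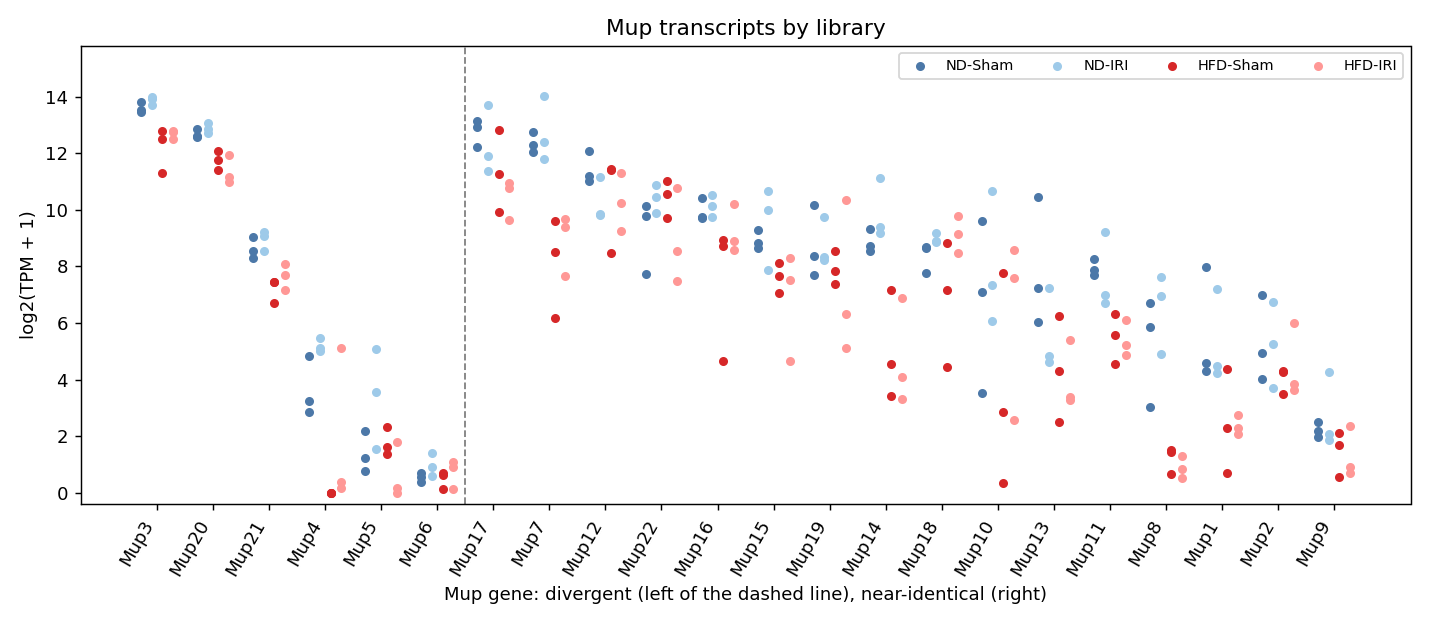
log2(TPM + 1) of each of the 22 Mup genes in each library, coloured by group, with the 6 divergent genes left of the dashed line and the 16 near-identical genes right of it, each class ordered by level. Mup3, Mup20 and Mup21 show the high-fat points below the normal-diet points, while several near-identical genes spread over several log2 units within a group.

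The spread between libraries of 1 group was wide for most near-identical genes. Their coefficient of variation (SD over mean) had a median of 36.8% in ND-Sham, 80.8% in ND-IRI, 76.3% in HFD-Sham and 75.3% in HFD-IRI. For the 6 divergent genes the medians were 31.4%, 19.9%, 46.3% (without Mup4, which is at 0 there) and 56.6%. Over the 4 groups it ran from 9.95% to 46.3% for Mup3, from 10.6% to 36.9% for Mup20 and from 22.6% to 31.5% for Mup21, but it reached 170.0% for the scarce Mup4 and 161.0% for Mup5. Classes overlapped, since in ND-Sham the near-identical Mup11 (19.9%) and Mup7 (26.2%) varied less than Mup21 (26.8%). Mup13 ranged from 65.3 to 1419 TPM among the 3 ND-Sham libraries and Mup10 from 10.5 to 785 TPM. Neither was called in any comparison, and the other near-identical genes without a call were Mup1, Mup2, Mup9, Mup12, Mup15, Mup16, Mup17, Mup19 and Mup22.

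IRI itself was followed by few calls among the Mup genes. On the normal diet 1 of 21 rose and 0 fell, and on the high-fat diet 1 of 21 rose and 0 fell, whereas over all genes tested 30.2% rose and 16.6% fell on the normal diet and, with high-fat feeding, 24.0% rose and 21.9% fell. The same 1 and 0 were found at an unadjusted p under 0.05 in limma on either diet. IRI libraries lay above sham without overlap in 2 of 21 on the normal diet (Mup4 and Mup18), against 31.4% of all genes. On the high-fat diet they did in 1 (Mup4, where sham was at 0), against 30.9%. None of these differences was called, and 0 genes lay lower without overlap, against 20.0% and 28.5%. The call on the normal diet was Mup5, a gene near the filter, which was at 1.34, 3.5 and 0.69 TPM in ND-Sham and 1.93, 32.5 and 10.9 TPM in ND-IRI. The groups overlapped, and the log2 difference of 2.01 (adjusted p = 0.0424) lost its call when any 1 of 4 libraries was left out, namely the first or the third ND-Sham or the second or the third ND-IRI library (adjusted p from 0.0867 to 0.186). Mup5 also lost its call with no filter, median-ratio scaling or quantile normalization. In high-fat-fed mice the call was Mup18, at 457, 20.6 and 142 TPM in HFD-Sham and 891, 572 and 358 TPM in HFD-IRI. Those groups overlapped too, and the difference of 2.34 (adjusted p = 0.0306) was lost without the second HFD-Sham library (1.15, adjusted p = 0.0774) or the first or second HFD-IRI library (adjusted p = 0.0994 and 0.0721). The standard errors of the IRI effect in Mup3, Mup20 and Mup21 were 0.3, 0.233 and 0.284, with log2 differences of 0.27, 0.21 and 0.34 on the normal diet and 0.49, -0.39 and 0.45 on the high-fat diet, none of them called. In the near-identical genes these standard errors ran from 0.596 (Mup11) to 2.1 (Mup10). The few calls among them therefore do not show that IRI left their levels unchanged.

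Among the 14 growth hormone axis genes, IRI moved 5 up and 5 down on the normal diet and 3 up and 2 down on the high-fat diet. In the whole set that made 6 of 35 higher and 5 of 35 lower on the normal diet, where 30.2% and 16.6% of all genes (46.8% together) were called. On the high-fat diet 4 were higher and 2 lower, against 24.0% and 21.9% of all genes (45.9% together). For the 14 axis genes alone, 35.7% were called higher and 35.7% lower on the normal diet (71.4% together) and 21.4% and 14.3% on the high-fat diet (35.7% together). Their share of falls on the normal diet was above that of all genes, and the 5 that fell were Ghr, Prlr, Igfals, Igf1 and Cux2, of which Cux2 passed the filter only through ND-Sham. The size of that excess depends on the scaling. All genes called lower went from 2213 to 3336 with median-ratio scaling and to 3860 with quantile normalization. The whole set had 5 lower in each. Sham and IRI libraries did not overlap in 3 of the 14 axis genes higher and 5 lower on the normal diet, against 31.4% and 20.0% of all genes, and in 3 higher and 5 lower on the high-fat diet, against 30.9% and 28.5%. Between the diets, 4 of the 14 did not overlap on the higher side (background 25.1%) and 6 on the lower side (background 4.74%) in sham livers, and 1 and 4 in IRI livers (backgrounds 13.1% and 7.0%). Of these, Bcl6 rose and Socs2, Igf1, Hsd3b5 and Cux2 fell with the high-fat diet in sham livers, and in IRI livers Hsd3b5 and Selenbp2 fell. The lower counts include Hsd3b5 in sham and IRI livers and Cux2 in sham livers. Both reached 1 TPM in 0 high-fat libraries, so the filter let them in only as genes lower on that diet. Markers of neutrophils, red blood cells, cholangiocytes, endothelium and Kupffer cells moved with IRI by the values given above, and their part in the IRI differences was not tested.

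**Figure D3:**
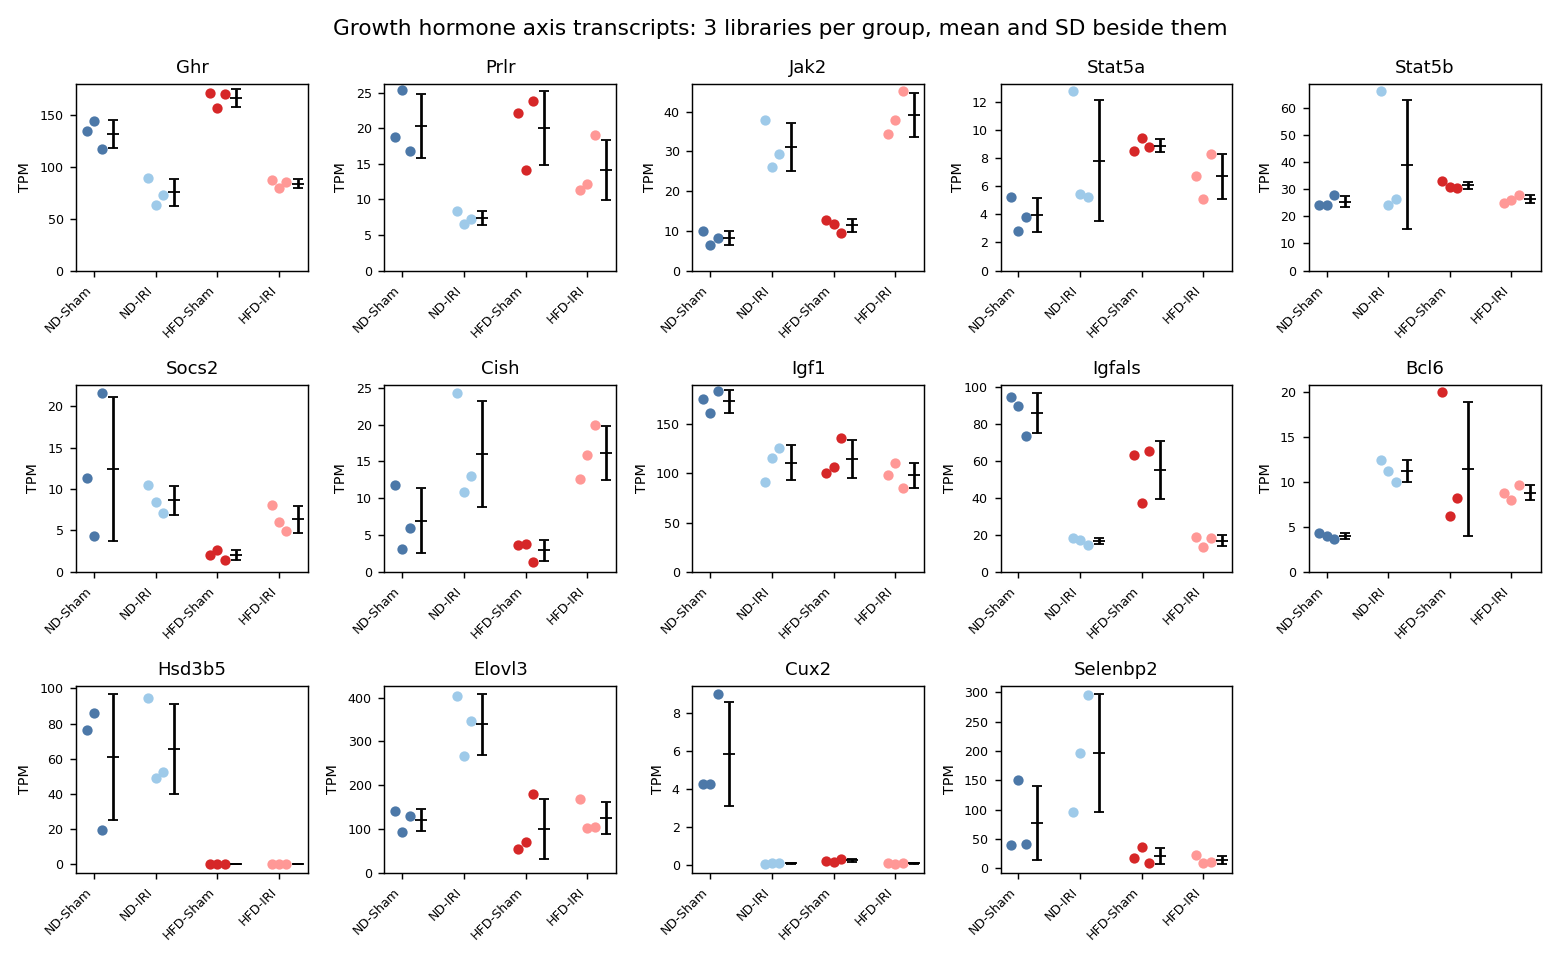
TPM of the 14 growth hormone axis genes, 1 panel per gene with its own axis, 3 libraries per group as points and the mean with SD beside them. Ghr and Igfals are lower and Jak2 higher in both IRI groups, Hsd3b5 is near 0 in both high-fat groups, and Cux2 is above 1 TPM in ND-Sham only.

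The receptor gene Ghr fell after IRI on both diets, and Prlr on the normal diet. Ghr was at 134.7, 143.9 and 117.4 TPM in ND-Sham and 89.3, 63.4 and 73.1 TPM in ND-IRI, and at 171, 156 and 170.4 TPM in HFD-Sham and 86.8, 79.2 and 85.3 TPM in HFD-IRI. Sham and IRI did not overlap on either diet. Ghr fell by 0.81 on the normal diet (SE 0.131, adjusted p = 0.000416) and fell by 0.98 on the high-fat diet (SE 0.131, adjusted p = 0.000129). In sham livers all 3 high-fat libraries lay above the normal-diet ones, but the difference of 0.33 was not called (adjusted p = 0.168).

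Prlr, the related prolactin receptor, was at 18.8, 25.4 and 16.8 TPM in ND-Sham and 8.41, 6.51 and 7.23 TPM in ND-IRI. It fell by 1.33 on the normal diet (SE 0.236, adjusted p = 0.000774), with no overlap. On the high-fat diet it was at 22.2, 14.2 and 23.8 TPM in sham livers and 11.3, 12.1 and 19.1 TPM in IRI livers, groups that overlapped, and the difference of -0.48 was not called (adjusted p = 0.118). The 2 effects were not shown to differ (difference 0.86, SE 0.334, adjusted p = 0.383).

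The kinase Jak2 rose after IRI on both diets. It was at 9.86, 6.52 and 8.21 TPM in ND-Sham, 37.9, 26.2 and 29.3 TPM in ND-IRI, 12.8, 11.8 and 9.58 TPM in HFD-Sham and 34.4, 37.9 and 45.2 TPM in HFD-IRI. Every IRI library lay above every sham library. The rises were 1.80 (adjusted p = 1.92e-05) and 1.70 (adjusted p = 2.86e-05), and both were kept under every alternative tried. Jak2 serves many cytokine receptors besides Ghr.

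The Stat5 genes gave less. Stat5b, the main Stat5 of hepatocytes, was at 24.2, 24.1 and 27.8 TPM in ND-Sham and 66.3, 24.2 and 26.4 TPM in ND-IRI, at 32.8, 30.7 and 30.5 TPM in HFD-Sham and at 25.0, 26.1 and 27.9 TPM in HFD-IRI. The first ND-IRI library stood far above the rest, and HFD-Sham lay above both ND-Sham and HFD-IRI without overlap, but no difference of Stat5b was called (0.30 by diet in sham livers, adjusted p = 0.57). The same library was alone in its level of Stat5a, at 12.8 TPM, where the others of its group were at 5.44 and 5.21 and those of ND-Sham at 5.24, 2.81 and 3.79 TPM. Stat5a rose by 0.76 (adjusted p = 0.0494), a call that was lost without that library (0.38, adjusted p = 0.175) and without the second or the third ND-Sham library (adjusted p = 0.172 and 0.102). Stat5a also lost this call with no filter, median-ratio scaling or quantile normalization. In HFD-Sham it was at 8.46, 9.4 and 8.75 TPM, above ND-Sham and HFD-IRI (6.73, 5.08 and 8.25 TPM) without overlap, and the diet difference of 1.03 in sham livers was not called (adjusted p = 0.0623).

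Of the feedback inhibitors, Cish rose after IRI on both diets. Cish was at 11.8, 3.12 and 5.89 TPM in ND-Sham and 24.3, 10.9 and 13.0 TPM in ND-IRI, which overlapped, and at 3.69, 3.83 and 1.3 TPM in HFD-Sham and 12.7, 15.9 and 20.0 TPM in HFD-IRI, which did not. It rose by 2.18 on the high-fat diet (SE 0.418, adjusted p = 0.00135), a call kept under every alternative tried. On the normal diet it rose by 1.18 (adjusted p = 0.0357). That call was lost without the second or the third ND-Sham library (adjusted p = 0.156 and 0.0815) or the first or the third ND-IRI library (adjusted p = 0.125 and 0.0582). It was also lost with no filter, median-ratio scaling or quantile normalization, and in 8 of 18 alternatives in all.

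Socs2, the other inhibitor and a direct Stat5 target, was lowest in HFD-Sham, at 2.05, 2.64 and 1.43 TPM. It was at 11.3, 4.37 and 21.6 TPM in ND-Sham, 10.5, 8.38 and 7.06 TPM in ND-IRI and 8.1, 6.01 and 4.89 TPM in HFD-IRI, and no library of those groups was as low as any HFD-Sham library. It fell by 1.93 on the high-fat diet in sham livers (SE 0.402, adjusted p = 0.0169) and rose by 1.27 after IRI on the high-fat diet (SE 0.402, adjusted p = 0.0222). The fall was lost without the third ND-Sham library, which held the highest value (-1.44, adjusted p = 0.0512). The rise was lost without the first or the third HFD-Sham library (adjusted p = 0.0516 and 0.074) or the first or second HFD-IRI library (adjusted p = 0.078 and 0.0522). In IRI livers the diets differed by -0.40 (adjusted p = 0.74).

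Other inhibitors of cytokine receptor signalling were taken as a list of 15 suppressors and phosphatases, all tested. After IRI 8 rose and 0 fell on the normal diet (limma; 10 and 0 at an unadjusted p under 0.05), and on the high-fat diet 8 were higher and 1 lower, against 30.2% higher and 16.6% lower and 24.0% and 21.9% of all genes. The list's shares were 53.3% and 0.0% on the normal diet and 53.3% and 6.67% on the high-fat diet, where Ptpn6, at 22.9 ± 2.67 and 13.9 ± 4.19 TPM, was the one that fell (adjusted p = 0.0454). The Ptpn6 call was lost without any 1 of the HFD-Sham libraries or without the first or second HFD-IRI library (adjusted p from 0.0575 to 0.157). Ptpn2, a phosphatase that acts on Jak1 and Stat proteins, went from 11.1 ± 1.72 to 90.1 ± 28.3 TPM on the normal diet (2.89, adjusted p = 1.86e-06) and from 11.4 ± 1.80 to 82.1 ± 8.13 TPM on the high-fat diet. Socs3, the inhibitor that interleukin-6 signalling induces, went from 31.5 ± 14.0 to 288 ± 110.5 TPM on the normal diet (3.17, adjusted p = 1.37e-05). In high-fat-fed mice it went from 10.04 ± 2.68 to 362 ± 48.1 TPM (5.06, adjusted p = 1.13e-06). Ptpn1 and Socs1 rose on both diets as well, by 1.80 and 1.86 on the normal diet and by 1.45 and 1.76 on the high-fat diet, though Socs1 reached 1 TPM in IRI libraries only. Socs3 was also the only one of the 15 called between the diets in sham livers, where it fell by 1.51 (adjusted p = 0.0147), a call lost without the third ND-Sham library (adjusted p = 0.0535).

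Of the circulating products of the axis, Igfals fell after IRI on both diets and Igf1 on the normal diet. Igfals, the liver-made subunit that holds Igf1 in its serum complex, was at 94.6, 89.8 and 73.6 TPM in ND-Sham and 18.2, 16.9 and 14.7 TPM in ND-IRI, and at 63.4, 37.0 and 65.2 TPM in HFD-Sham and 18.9, 13.2 and 18.3 TPM in HFD-IRI. All 6 IRI libraries lay below all 6 sham libraries. It fell by 2.30 on the normal diet (SE 0.213, adjusted p = 1.05e-05) and fell by 1.63 on the high-fat diet (SE 0.213, adjusted p = 0.000109), and both calls were kept under every alternative tried. In sham livers all high-fat libraries lay below the normal-diet ones, though the difference of -0.67 was not called (adjusted p = 0.0929).

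Igf1, the growth factor itself, was highest in ND-Sham, at 175, 161 and 184 TPM. The other groups overlapped each other, with 91.5, 115 and 126 TPM in ND-IRI, 100.3, 107 and 136 TPM in HFD-Sham and 98.5, 110.3 and 85.0 TPM in HFD-IRI. No library of these groups reached the ND-Sham range. Igf1 fell by 0.65 after IRI on the normal diet (SE 0.155, adjusted p = 0.0048) and fell by 0.61 with the high-fat diet in sham livers (SE 0.155, adjusted p = 0.041). The second call was lost when any 1 of 5 libraries was left out, namely any ND-Sham library or the first or second HFD-Sham library (adjusted p from 0.0652 to 0.161).

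The rest of the insulin-like growth factor system was followed as 14 genes, of which 10 were tested. After IRI 3 rose and 2 fell on the normal diet, and on the high-fat diet these counts were 2 and 1. Those counts out of 10 are near or below the shares of all genes, which were 30.2% and 16.6% on the normal diet and 24.0% and 21.9% on the high-fat diet. Igfbp4, a binding protein that inhibits Igf action, fell on both, with means of 780.5 ± 90.2 and 342 ± 6.86 TPM on the normal diet (-1.18, adjusted p = 2.17e-05) and 790.5 ± 56.3 and 421 ± 58.4 TPM on the high-fat diet (-0.91, adjusted p = 0.000132). The receptor gene Igf1r, which is scarce in hepatocytes, rose from 0.52 ± 0.106 to 1.33 ± 0.282 TPM on the normal diet and, at 0.533 ± 0.0404 and 1.33 ± 0.284 TPM, on the high-fat diet. It reached 1 TPM in 6 IRI and 0 sham libraries, so it could be tested only because it was higher in IRI. On the normal diet Igfbp2, a binding protein, fell by 1.24 (adjusted p = 0.0098), and Igf2r, the receptor that clears Igf2, rose by 0.50 (adjusted p = 0.0389). The 3 rises on the normal diet became 1 without the second or the third ND-Sham library or the second or the third ND-IRI library. On the high-fat diet Stc1 rose by 0.90 (adjusted p = 0.0068), and it too passed only through IRI libraries (3, and 0 sham). With diet in sham livers Igfbp2 fell from 932 ± 249 to 328 ± 144 TPM (-1.59, adjusted p = 0.0183) and Igfbp7 rose by 0.78 (adjusted p = 0.0196). The Igfbp2 call was lost without the third ND-Sham library (adjusted p = 0.0834) or the second HFD-Sham library (adjusted p = 0.0561). The Igfbp7 call was lost without the second or the third ND-Sham library or the first or second HFD-Sham library (adjusted p from 0.0561 to 0.0953). In IRI livers limma called 0 of the 10 between the diets, and 3 had an unadjusted p under 0.05.

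Bcl6 and Cux2 encode transcription factors that are male-biased and female-biased in mouse liver and bind near sex-biased genes. Bcl6 was lowest in ND-Sham, at 4.31, 3.93 and 3.6 TPM, against 12.4, 11.2 and 9.99 TPM in ND-IRI, 20.0, 6.19 and 8.17 TPM in HFD-Sham and 8.73, 8.0 and 9.67 TPM in HFD-IRI. No library of the other 3 groups was as low as ND-Sham. It rose by 1.30 after IRI on the normal diet (SE 0.301, adjusted p = 0.00409), a call kept under every alternative tried. It rose by 1.18 with the high-fat diet in sham livers (adjusted p = 0.042), where the first HFD-Sham library stood far above the other two and the difference was 0.72 without it (adjusted p = 0.0527). That call was also lost without any 1 of the ND-Sham libraries (adjusted p from 0.0528 to 0.135). It did not hold with no filter, median-ratio scaling, quantile normalization, or totals without mitochondrial and the 50 most abundant genes. In all it was lost in 9 of 18 alternatives.

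Cux2 was at 4.26, 4.25 and 8.98 TPM in ND-Sham and below 1 TPM in every other library. It was at 0.05, 0.1 and 0.11 TPM in ND-IRI, 0.22, 0.16 and 0.33 TPM in HFD-Sham and 0.08, 0.03 and 0.12 TPM in HFD-IRI. It fell by 2.58 after IRI on the normal diet (adjusted p = 6.12e-06) and fell by 2.40 with the high-fat diet in sham livers (adjusted p = 0.00011), and both calls were kept in every alternative that could test it. It was the 1 of the 35 genes with a called difference between the 2 IRI effects (2.38, SE 0.312, adjusted p = 0.0166), against 0.0973% of all genes tested (0.0449% higher and 0.0524% lower), but this restates the filter and the level of HFD-Sham: Cux2 was tested only because of ND-Sham, and at 0.16 to 0.33 TPM in HFD-Sham it could hardly fall on this scale. That call was lost without the second or the third ND-IRI library (adjusted p = 0.0623 and 0.0543) or the third HFD-IRI library (adjusted p = 0.0679).

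Of the male-biased metabolic genes of the set, Hsd3b5 fell with the high-fat diet in sham and IRI livers, Selenbp2 fell with it in IRI livers, and Elovl3 rose after IRI on the normal diet. Hsd3b5, a male-specific hepatic 3-ketosteroid reductase, was at 76.3, 86.1 and 19.8 TPM in ND-Sham and 94.7, 49.3 and 52.6 TPM in ND-IRI, but at 0.41, 0.13 and 0.27 TPM in HFD-Sham and 0.13, 0.22 and 0.06 TPM in HFD-IRI. No high-fat library reached 1 TPM, and the group means were 225-fold and 479-fold lower, ratios that rest on values near 0. It fell by 5.36 in sham livers (SE 0.437, adjusted p = 4.73e-05) and fell by 5.81 in IRI livers (SE 0.437, adjusted p = 1.83e-05), and both calls were kept under every alternative tried. Hsd3b5 passed the filter only through the normal-diet libraries. The filter thus let it in only as a gene lower on the high-fat diet, and its direction is no result.

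Selenbp2, a selenium-binding protein gene, was at 40.7, 149.7 and 42.2 TPM in ND-Sham, 95.8, 196 and 296 TPM in ND-IRI, 17.6, 36.8 and 9.0 TPM in HFD-Sham and 22.2, 9.8 and 10.7 TPM in HFD-IRI. All high-fat libraries lay below all normal-diet ones. It fell by 3.64 in IRI livers (SE 0.59, adjusted p = 0.00498), a call kept under every alternative tried, and the difference of -1.76 in sham livers was not called (adjusted p = 0.108). Elovl3, a fatty acid elongase, was at 140.1, 92.9 and 129 TPM in ND-Sham and 403, 266 and 347 TPM in ND-IRI. It rose by 1.48 after IRI on the normal diet (SE 0.37, adjusted p = 0.00634), with no overlap and under every alternative tried. On the high-fat diet it was at 53.5, 69.3 and 179.7 TPM in sham livers and 168, 103 and 105 TPM in IRI livers, which overlapped, and neither diet difference was called (-0.44 in sham livers, adjusted p = 0.519, and -1.44 in IRI livers, adjusted p = 0.0532), though in IRI livers the high-fat libraries all lay below the normal-diet ones.

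Sex-biased genes outside the set were followed in 2 lists written from general knowledge of mouse liver. Of 18 male-biased genes, 16 were tested, and on the high-fat diet 9 fell and 0 rose in sham livers and 12 fell and 0 rose in IRI livers. Of 24 female-biased genes, 15 were tested, and 5 rose and 0 fell in sham livers and 10 rose and 0 fell in IRI livers. All 5 of the first and 5 of the 10 (Cyp2b9, Cyp2b13, Cyp2a4, Hao2 and Vldlr) reached 1 TPM in at most 2 of the 6 normal-diet libraries, so the filter let them in only as genes higher on the high-fat diet, and their direction is no result. The other 5 in IRI livers passed on both diets. These counts stand beside 1.2% of all genes that fell and 4.63% that rose in sham livers, and 1.48% and 2.38% in IRI livers. At an unadjusted p under 0.05, limma put 0 male-biased genes higher in sham or IRI livers, and 4 female-biased genes lower in sham livers and 0 in IRI livers. Without the second or the third ND-Sham library, 5 male-biased genes fell in sham livers, and without the second or the third ND-IRI library or the second HFD-IRI library, 6 female-biased genes rose in IRI livers. Without the first ND-Sham and first ND-IRI libraries together, 3 female-biased genes fell in sham livers beside 5 that rose. Hepatocyte markers summed to between 91720.5 and 105225 TPM in HFD-Sham and between 98381 and 116896 TPM in ND-Sham.

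Serpina1e, an alpha-1-antitrypsin paralogue of male mouse liver, was at 8394, 11222 and 7654 TPM in ND-Sham and at 204, 92.9 and 164 TPM in HFD-Sham. It fell by 5.93 in sham livers (adjusted p = 3.33e-07) and fell by 5.99 in IRI livers (adjusted p = 2.96e-07), with no overlap. C6, a complement component, went from 162 ± 9.47 to 41.3 ± 7.66 TPM in sham livers (-1.96) and from 138 ± 28.2 to 25.1 ± 8.33 TPM in IRI livers (-2.44). The glutathione transferase gene Gstp1 fell by 1.09 in sham and fell by 1.96 in IRI livers, the cytochrome P450 gene Cyp2d9 fell by 1.5 in sham livers, and the glucuronosyltransferase gene Ugt2b38 fell by 2.33 in IRI livers.

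Cyp2b9, a female-biased cytochrome P450 gene, did not pass 0.76 TPM in any normal-diet library. It was at 560, 489.7 and 467 TPM in HFD-Sham and 226, 267 and 430.2 TPM in HFD-IRI. It rose by 8.46 in sham livers (adjusted p = 6.22e-10) and by 7.77 in IRI livers (adjusted p = 1.74e-09). Cyp2a4, a steroid 15-alpha-hydroxylase gene, rose from 0.75 ± 0.577 to 71.8 ± 34.8 TPM in sham livers (5.30) and from 1.01 ± 1.06 to 21.2 ± 6.63 TPM in IRI livers (3.54). Vldlr, a lipoprotein receptor gene, rose by 1.40 and 1.34. Hao2, a peroxisomal oxidase gene, rose by 2.72 in sham livers (adjusted p = 0.00219), and Cyp17a1, a steroidogenic P450 gene, by 1.97 in IRI livers (adjusted p = 0.000841). Of these female-biased genes, only Cyp17a1 passed the filter on both diets. Cyp2b9, Cyp2a4, Vldlr and Hao2 were let in only as genes higher on the high-fat diet, so their direction is no result. Serpina1, Cyp2a, Cyp2b, Cyp2d and Ugt2b genes have close paralogues that can share reads, so the share of a single member is uncertain.

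**Figure D4:**
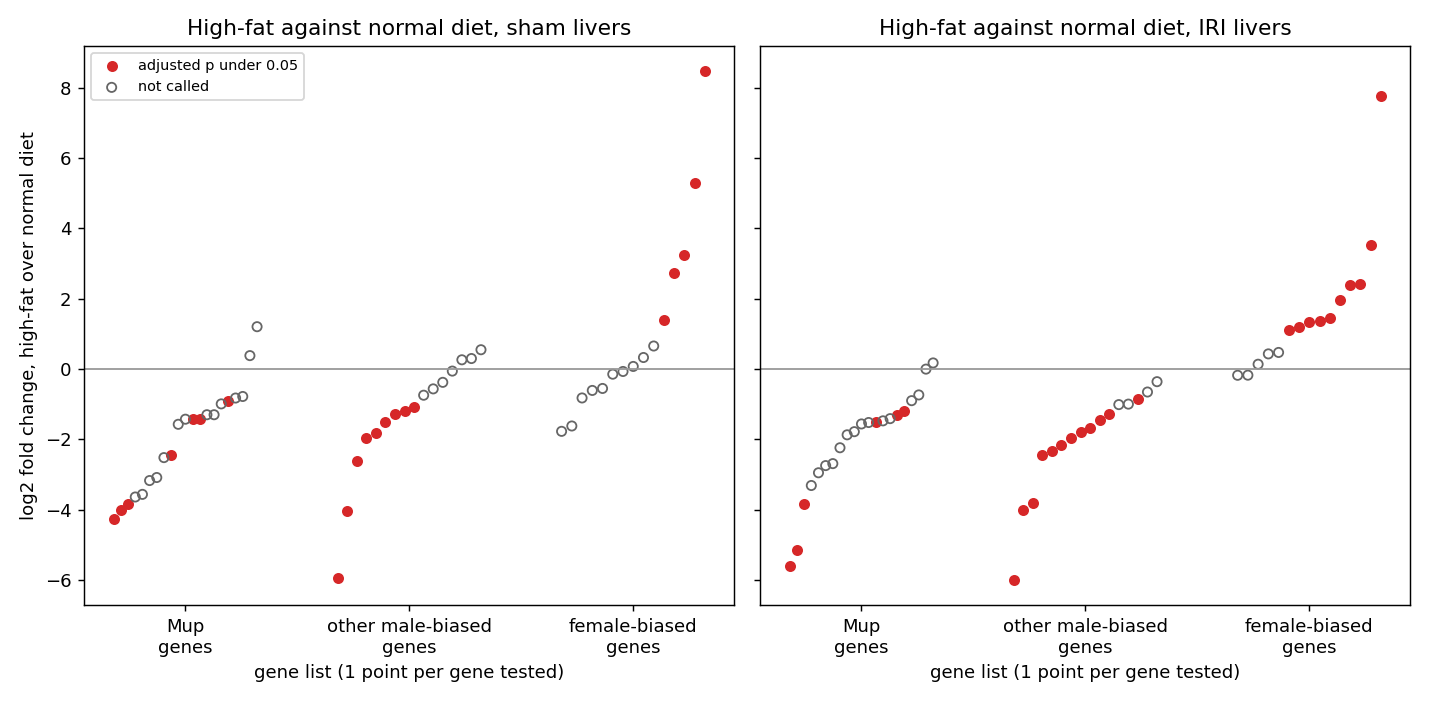
Log2 difference between high-fat and normal diet (vertical axis) of each tested Mup gene, other male-biased gene and female-biased gene, ordered within a list, in sham livers (left) and IRI livers (right), filled where the adjusted p was under 0.05. The called Mup and other male-biased genes all lie below 0 and the called female-biased genes all lie above 0 in both panels. All 5 female-biased calls in sham livers and 5 of the 10 in IRI livers passed the filter only through high-fat libraries. The direction of those genes is no result.

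After IRI, calls in the sex-biased lists went both ways, except for the male-biased genes on the high-fat diet, which fell where they were called. Beside them, 30.2% of all genes rose and 16.6% fell on the normal diet, and 24.0% and 21.9% did on the high-fat diet. On the normal diet 3 male-biased genes rose and 4 fell, among them Ugt2b38 (1.46), Serpina12 (1.41), Hsd3b2 (-1.43) and Cyp2d9 (-0.86). With high-fat feeding 0 rose and 8 fell, with Hsd3b2 (-2.63), Nudt7 (-1.91), Ugt2b1 (-0.77) and Cyp2d9 (-0.65) at the smallest adjusted p. The 8 became 5 without the first or the third HFD-Sham library or the second or the third HFD-IRI library, and Cyp2d9 lost its call without the first HFD-Sham library (adjusted p = 0.0565). Of the female-biased genes, 2 rose and 6 fell on the normal diet, with Fmo2 from 27.3 ± 3.45 to 4.03 ± 1.19 TPM (-2.51, adjusted p = 6.61e-06), Atp6v0d2 (-1.45) and Cyp2c69 (-2.01) among the falls and Nipal1 (1.01) and Cyp3a44 (0.54) the rises. Cyp3a44 reached 1 TPM in 3 IRI libraries of the high-fat diet and in 0 others, and Cyp2c69 in 5 sham and 2 IRI libraries. Leaving out the first ND-Sham or first ND-IRI library ended the Nipal1 call (adjusted p = 0.0505 and 0.0556), and leaving out the third ND-IRI library ended that of Cyp3a44 (adjusted p = 0.0511). With high-fat feeding 3 rose and 4 fell, with Nipal1 (3.01) and Cyp3a44 (1.04) among the rises and Cyp2a4 (-1.63) and Cyp2b9 (-0.77) among the falls. The 4 became 2 without any 1 of the HFD-Sham libraries or the first HFD-IRI library. Limma called 0 differences between the 2 IRI effects in either list, where 5 male-biased and 9 female-biased genes had an unadjusted p under 0.05.

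Transcription factors that act on liver genes, a list of 13 that were all tested, had 0 calls by limma between the diets in sham livers and 0 in IRI livers, where 2 and 1 had an unadjusted p under 0.05. After IRI 4 rose and 1 fell on the normal diet and on the high-fat diet these counts were 4 and 2. Those are 30.8% and 7.69%, and 30.8% and 15.4%, of the list, beside 30.2% and 16.6%, and 24.0% and 21.9%, of all genes. Zhx2, a repressor of several liver genes, rose from 8.62 ± 1.09 to 16.5 ± 2.71 TPM on the normal diet (0.86, adjusted p = 0.00294), Cebpb from 254 ± 64.1 to 444 ± 17.4 TPM (0.84, adjusted p = 0.00454) and Foxa3 from 37.6 ± 15.5 to 68.6 ± 10.7 TPM (0.92, adjusted p = 0.0116). Trim24, a nuclear receptor cofactor, fell from 17.1 ± 2.99 to 8.22 ± 0.995 TPM (-0.97, adjusted p = 0.00102). On the high-fat diet Foxa3 rose by 1.48 and Cebpb by 0.89, and Onecut2 fell by 0.91 (adjusted p = 0.0101). The 4 rises on the high-fat diet became 2 without the third HFD-Sham library or the second HFD-IRI library.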

How the data were processed

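Per the labels, mRNA was selected by its poly(A) tail, made into strand-specific (dUTP) libraries and sequenced by BGI, 1 library for each of 12 samples. The deposited table held TPM per gene symbol, computed by the authors on build GRCm39 per the submitters' processing notes. The aligner, counting tool, annotation and use of strand are not given in the sources used here. TPM keep no depth, so no counting interval was made. A further sheet with 23 columns that match no sample here was not used.

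Dropping 2 blank rows left 25947 entries, in which 18 symbols recur and were not merged. The 13364 genes that reached 1 TPM in 3 or more libraries were fitted on log2(TPM + 1) with limma 3.58.1 under R 4.3.3. The fit had a mean per group over all 12 libraries and a variance trend, tests were two-sided, and p-values were adjusted by Benjamini-Hochberg in each of 5 contrasts. Those were the 2 effects of IRI (1 per diet), the 2 effects of diet (1 per operation) and the difference between the effects of IRI. The fit was tested on simulated data. The genes and lists were chosen with earlier results of these data known, so their counts are descriptions. Every gene of the set is accounted for. Of the lists, up to 4 called genes per contrast with the smallest adjusted p, and up to 2 of the opposite direction, were named, apart from 2 genes that are not reported here.

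Mup sequences came from GENCODE M21 transcripts and promoters from RefSeq, both on GRCm38, aligned with Biopython 1.88. No coordinate was converted to GRCm39. Mup genes were classed as near-identical at 97% coding identity or more to another member. Figures were drawn with matplotlib 3.10.9 (Python 3.11.15).

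Other settings tried were 0.1 as pseudocount, the filter left out or raised to 5 TPM, scaling by median ratio, by quantiles, or by totals that leave out mitochondrial and the 50 most abundant genes or the Mup genes, a constant variance prior, fits of 2 groups alone, a block for the replicate number, and a minimum log2 difference of 1. Each library was left out in turn, and ND-Sham 1 with ND-IRI 1 as a pair.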

Additional observations from a re-analysis of the deposited data

Results flagged for a closer look

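For Cux2, the female-biased transcription factor gene, the fitted difference between the IRI effects of the diets was 2.38 on the log2 scale (SE 0.312, limma adjusted p = 0.0166). It is a description and no independent result, since Cux2 passed the filter only through the ND-Sham libraries and HFD-Sham was too near 0 to fall. Cux2 was at 5.83 ± 2.73 TPM in ND-Sham (SD, n = 3) and at 0.0867 ± 0.0322 in ND-IRI, 0.237 ± 0.0862 in HFD-Sham and 0.0767 ± 0.0451 in HFD-IRI. It fell in 3 of 3 ND-IRI libraries against every ND-Sham library, while both high-fat groups were near 0 TPM. The adjusted p ran from 0.0543 to 0.0679 without the second or the third ND-IRI library or the third HFD-IRI library, and Cux2 was not among the genes tested at 5 TPM or more.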

How the results depend on the processing

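Of 38 calls of single members over the 5 comparisons, 16 were kept under every alternative and 0 changed direction. Another scaling moved the median of all genes by -0.16 (median-ratio) and -0.22 (quantile) for IRI on the normal diet, by -0.16 and -0.18 for diet in sham livers, and by 0.14 and 0.14 for the difference between IRI effects. Calls over all genes on the normal diet split into 4035 higher and 2213 lower, against 3529 and 3336 with median-ratio scaling and 3180 and 3860 with quantile normalization, and in sham livers by diet into 619 and 161 against 284 and 213 and 329 and 250.

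For IRI on the normal diet, 6 members higher became 3 with no filter, median-ratio scaling or quantile normalization, and requiring a log2 difference of 1 left 2523 of 6248 genes and 3 members lower. On the high-fat diet, 4 members higher became 2 with no filter, and that requirement left 2327 genes and 1 member lower. For diet in sham livers (780 genes), 1 member higher became 0 with no filter, either scaling or totals without the most abundant genes, and 11 lower became 6 with no filter or only the groups compared. The 780 became 497 with median-ratio scaling, 367 with only the groups compared, 315 with a log2 difference of 1, and 1730 (2 members higher) without ND-Sham 1 and ND-IRI 1, the first library of each group. In IRI livers 516 genes became 304 with only the groups compared and 246 with a log2 difference of 1, and 8 members lower became 5 with no filter. The 13 genes of the difference became 25 with a pseudocount of 0.1, 21 with no filter or quantile normalization, and 335 (1 member lower) without those 2 libraries, and 0 members were higher at 5 TPM. The summed Mup log2 ratio for IRI on the normal diet went from 0.22 to -0.016 with median-ratio scaling.

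Leaving out 1 library at a time gave 3 to 5 members higher for IRI on the normal diet, 2 to 5 higher and 2 to 5 lower on the high-fat diet, 248 to 1047 genes, 0 to 1 members higher and 4 to 10 lower for diet in sham livers, 240 to 609 genes and 4 to 8 members lower in IRI livers, and 2 to 89 genes and 0 to 1 members higher for the difference. The summed Mup ratio then ran from -0.098 to 0.36 for IRI on the normal diet and from -0.37 to 0.26 on the high-fat diet, against -1.57 to -0.93 and -1.73 to -1.21 for diet in sham and IRI livers. The cause was not tested in any of these.

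The labels do not say whether samples of the same replicate number belong together. Libraries of the same number correlated between groups at r = -0.188 to 0.418 over 12 pairs. These values cannot decide it, since libraries of different numbers were not set beside them. With the replicate number as a block, 5879, 5762, 568, 448 and 9 genes were called in the 5 comparisons. It ended the calls of Mup5 (adjusted p = 0.0549) and Igf2r (0.0618) for IRI on the normal diet, Ptpn6 (0.0699) for IRI on the high-fat diet, and Igf1 (0.0582) and Mup20 (0.0656) for diet in sham livers, and no other call of a named gene.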
